A study of Mus musculus with 14 samples.

Results

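Acetylcholine receptors of hippocampal parvalbumin (PV) neurons were followed through 9 genes of the raw count table, chosen by name. They were the muscarinic receptor genes Chrm1, Chrm2, Chrm3 and Chrm4 and the nicotinic subunit genes Chrna3, Chrna4, Chrna5, Chrna7 and Chrnb2. The table held 39017 genes, of which 21298 passed a filter on low counts and were tested. All 9 receptor genes passed the filter and had at least 1 count in each of the 14 libraries. PV neurons were sampled with translating ribosome affinity purification (TRAP), in which ribosomes carrying an EGFP-tagged L10a protein are pulled down with the mRNA they hold. Mice carried PV-Cre and a Cre-dependent EGFP-L10a allele, so that the tag was placed wherever Cre driven by the parvalbumin gene had been active. Male mice, aged 8 to 12 weeks at the start, underwent 10 days of chronic social defeat stress (CSDS) or were left undefeated. Defeated mice were then called resilient or susceptible from a social interaction test. TRAP libraries came from 4 non-defeated, 4 resilient and 3 susceptible mice, each made from both hippocampi of a single mouse. The 3 input libraries held total RNA from before the pulldown and came from non-defeated mice only, so the pulldown could be compared with whole tissue in that group alone.

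Acetylcholine reaches the hippocampus mainly from neurons of the medial septum and diagonal band, and it acts on both excitatory cells and interneurons. The muscarinic receptors are G protein-coupled. M1 and M3 (Chrm1, Chrm3) couple to Gq and raise excitability through phospholipase C and closure of Kv7 potassium channels, whereas M2 and M4 (Chrm2, Chrm4) couple to Gi/o and open GIRK potassium channels or reduce transmitter release. Nicotinic receptors are pentameric cation channels. The α7 subunit (Chrna7) forms homomeric channels with high calcium permeability, α4 and β2 (Chrna4, Chrnb2) form the common high-affinity receptor of the brain, α5 (Chrna5) is an accessory subunit, and α3 (Chrna3) is best known from autonomic ganglia and the medial habenula. The M2 protein is known from the axon terminals of hippocampal PV basket cells.

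The promoter windows of the 2 receptor genes on which the results below turn most are shown, Chrm2 because it had the highest ratio of TRAP to input and Chrna7 because it differed between susceptible and resilient mice. Each window runs from 250 bases before to 50 bases after the RefSeq transcript start on GRCm38.p6, in the direction of transcription. Capitals mark a GC box (GGGCGG, or CCGCCC on the other strand) and an E-box (CACGTG, which reads the same on both strands). The Chrm2 window is chr6:36387834-36388133 on the plus strand and the Chrna7 window is chr7:63212477-63212776 on the minus strand.
Chrm2: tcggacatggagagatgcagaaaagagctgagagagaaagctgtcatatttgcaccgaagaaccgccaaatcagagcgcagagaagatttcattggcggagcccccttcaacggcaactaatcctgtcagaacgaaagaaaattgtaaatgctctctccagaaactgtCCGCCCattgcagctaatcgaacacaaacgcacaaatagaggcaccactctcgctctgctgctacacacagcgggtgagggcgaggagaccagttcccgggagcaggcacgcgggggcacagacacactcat
Chrna7: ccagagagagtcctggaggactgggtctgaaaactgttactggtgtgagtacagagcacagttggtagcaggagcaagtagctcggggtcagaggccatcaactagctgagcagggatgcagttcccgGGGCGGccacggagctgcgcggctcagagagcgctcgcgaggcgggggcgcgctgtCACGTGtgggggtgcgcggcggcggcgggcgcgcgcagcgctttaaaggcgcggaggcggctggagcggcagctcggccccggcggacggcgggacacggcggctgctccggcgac
Windows were found for 8 of the 9 receptor genes, Chrna5 having 2, which made 9 windows. The CACGTG match was present in 1 of these 9 windows, that of Chrna7, and in 7.15% of all 32851 windows of the same length. A GC box was present in 7 of the 9 windows and in 35.7% of all windows. A TATAAA match was in 0 of the 9 windows against 13.6% of all, and a CCAAT match in 2 of the 9 against 37.4% of all, both searched on either strand. These matches describe the letters of the windows.

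The libraries held between 64110214 and 94726962 counts on genes. Parvalbumin mRNA (Pvalb) was 57.6 times as high in TRAP of non-defeated mice as in input, and 8 of 8 PV interneuron markers were higher there. Of 6 excitatory neuron markers all 6 were lower, with TRAP-to-input ratios of 0.180 to 0.557, so that these transcripts were still present in the pulldown. In 5 libraries the transcript of Tcf7l2, a transcription factor of thalamic and habenular neurons, exceeded 15 normalized CPM (read counts scaled by library size and TMM factor). They were non-defeated 11, non-defeated 9, resilient 7, susceptible 10 and input 14. Their Tcf7l2 levels were between 19.4 and 132 CPM, against at most 10.95 CPM in the other 9 libraries. The summed level of all 8 thalamus and habenula markers in resilient 7 was 784 CPM, the highest of the 14 libraries. Each result rests in part on some of these libraries. A fit without all 5 of them called 4 of the 9 receptor genes in PV TRAP versus input (Chrm1, Chrm2, Chrna5, Chrna7), beside 50.3% of all genes. It called 0 of the 9 in both comparisons with non-defeated mice, beside 0% of all genes. In susceptible versus resilient mice it called Chrna7 alone of the 9, beside 3.82% of all genes. The values of this fit stand below beside the genes called.

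Receptor genes differed widely in level in the 11 TRAP libraries. Compared per length, as normalized CPM divided by kilobases of exon (RPKM), Chrm1 came first at 7.90 ± 0.78 RPKM (mean ± SD, n = 11 TRAP libraries). Its lowest library, at 6.76 RPKM, lay above the highest library of every other receptor gene. Chrm2 followed at 3.47 ± 0.79 RPKM, Chrm4 at 2.52 ± 0.60 RPKM, Chrna4 at 2.27 ± 1.53 RPKM and Chrnb2 at 1.90 ± 0.23 RPKM. The ranges of these 4 neighbours overlapped from each to the next. Chrna7, at 0.573 ± 0.158 RPKM, lay apart from them by this length, since its highest library (0.862 RPKM) was below the lowest of Chrna4 (1.09 RPKM). The gap depended on the length used. Divided by the longest transcript instead, Chrna7 reached 1.38 RPKM in resilient 8, above the lowest library of Chrna4 (1.20 RPKM, resilient 3). Chrm3 at 0.159 ± 0.064 RPKM, Chrna5 at 0.131 ± 0.093 RPKM and Chrna3 at 0.0660 ± 0.0945 RPKM came last, with overlapping ranges. The lengths were the union of exons in GENCODE, and the Chrm4 model consisted of 1 exon of 1440 bp. The place of Chrm4 above Chrna4 and Chrnb2 rested on this short length. Before division by length the TRAP means were 3.63 CPM for Chrm4, 11.4 CPM for Chrna4 and 15.9 CPM for Chrnb2.

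In input the order differed. Chrm1 again came first at 18.3 ± 2.2 RPKM (n = 3), but Chrna7 was next at 1.89 ± 0.28 RPKM, beside Chrna4 at 1.85 ± 0.58 RPKM and Chrm4 at 1.84 ± 0.48 RPKM, whose ranges overlapped. Chrnb2 stood at 1.41 ± 0.09 RPKM and Chrm2 at 0.766 ± 0.074 RPKM. The lowest were Chrna5 at 0.553 ± 0.143 RPKM, Chrm3 at 0.431 ± 0.047 RPKM and Chrna3 at 0.0722 ± 0.0496 RPKM. Ordered by mean, Chrm2 was thus in second place over all 11 TRAP libraries and in sixth place in input, and Chrna7 moved the other way, from second in input to sixth in TRAP. The gene in second place overlapped in range with the gene after it, in TRAP and in input.

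**Figure D1:**
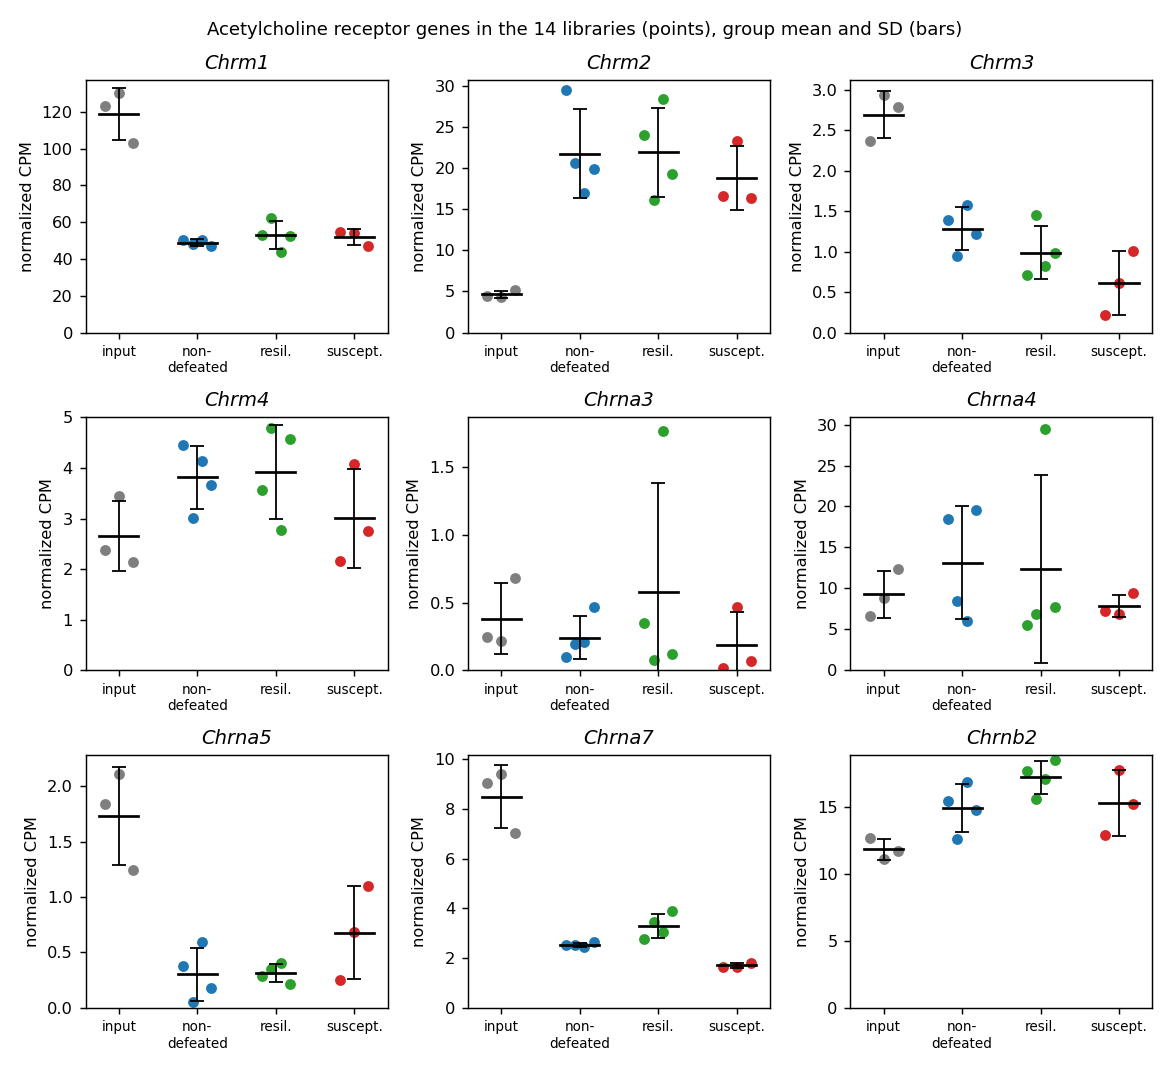
Normalized CPM (vertical axis, starting at 0) of the 9 receptor genes in each of the 14 libraries, in 4 groups, with the group mean and SD as bars. Chrm2 was higher in all 11 TRAP libraries than in the 3 input libraries, Chrm1 and Chrna7 were lower in all 11, and the susceptible points of Chrna7 lay below those of the other TRAP groups.

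The question of the TRAP and input comparison is which receptor transcripts PV neurons hold on their ribosomes more, or less, than the tissue around them. Of the 9 receptor genes, 2 were higher in TRAP of non-defeated mice (Chrm2, Chrnb2), 4 were lower (Chrna7, Chrm1, Chrna5, Chrm3), and 3 did not pass the test (Chrm4, Chrna4, Chrna3; edgeR quasi-likelihood test, adjusted p under 0.05 over all genes). The same test called 55% of all genes, 27.4% higher and 27.6% lower. The median log2 fold change was -0.66 over the receptor genes and -0.04 over all genes tested. The groups did not overlap for 5 of the 9 genes, and for 62% of all genes. In whole tissue, fewer cells of a type and less RNA per cell cannot be told apart, and this holds for every ratio to input.

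Chrm2 (ENSMUSG00000045613; chromosome 6, 36388084 to 36528414, plus strand, GRCm38), which encodes the Gi/o-coupled M2 receptor, gave the highest ratio of TRAP to input among the receptor genes. Its normalized CPM was 29.5, 20.7, 16.9 and 19.9 in non-defeated 11, 1, 6 and 9, and 4.46, 4.304 and 5.15 in input 12, 13 and 14. Every TRAP library was above every input library. The mean was 4.69 times as high in TRAP, a log2 fold change of 2.23 ± 0.23 (SE; adjusted p = 1.65e-06, edgeR). PV interneuron markers had ratios of 2.83 (Gad2) to 57.6 (Pvalb), so Chrm2 lay inside their range, next to Gad1 at 4.77. Of 7 markers of other interneurons, Sst (3.05) and Npy (6.92) were higher in TRAP too, with Chrm2 between them, and the other 5 were lower. Without the 5 libraries high in Tcf7l2 the log2 fold change of Chrm2 was 2.11 ± 0.23 (adjusted p = 5.53e-05, edgeR). The lincRNA gene 9330158H04Rik shares 142 bp of exon with Chrm2 on the opposite strand, and since the libraries do not mark strand, reads of the shared bases cannot be told apart. It was also higher in TRAP, with 6.77 ± 1.01 CPM against 0.957 ± 0.183 CPM in input (log2 fold change 2.82, adjusted p = 5.19e-08, edgeR). The promoter window of Chrm2 printed above holds a GC box and no E-box.

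Chrm4 (ENSMUSG00000040495; chromosome 2, 91927249 to 91928688, plus strand), for the other Gi/o-coupled muscarinic receptor, did not pass the test. It stood at a normalized CPM of 4.45, 3.01, 4.13 and 3.66 in non-defeated 11, 1, 6 and 9, and 2.38, 3.44 and 2.13 in the 3 input libraries. The groups overlapped, with input 13 inside the TRAP range. This gave a log2 fold change of 0.53 ± 0.26 (95% interval -0.02 to 1.08; adjusted p = 0.0964, edgeR), but without input 13 it was 0.76 (adjusted p = 0.0430, edgeR) and with DESeq2 0.55 (adjusted p = 0.0306), while without the 5 libraries high in Tcf7l2 it was 0.31 (adjusted p = 0.396, edgeR).

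Chrm1 (ENSMUSG00000032773; chromosome 19, 8663789 to 8683587, plus strand), which encodes the Gq-coupled M1 receptor, was lower in TRAP although it remained the receptor gene with the highest level there. Normalized CPM of Chrm1 was 50.5, 47.9, 50.2 and 47.2 in non-defeated 11, 1, 6 and 9 against 123, 130 and 103 in input 12, 13 and 14. All 4 TRAP libraries lay below the lowest input library. TRAP minus input gave a log2 fold change of -1.28 ± 0.11 (adjusted p = 3.81e-07, edgeR) and a ratio of 0.412. Without the 5 libraries high in Tcf7l2 the log2 fold change was -1.36 ± 0.12 (adjusted p = 1.94e-05, edgeR). This ratio lay inside the range of the 6 excitatory neuron markers, and also inside those of the astrocyte (0.235 to 0.791), microglia (0.152 to 0.654) and other interneuron markers (0.204 to 6.92). From which cells the Chrm1 reads came was not tested. A misc_RNA gene, Gm22820, shares 329 bp of exon with Chrm1 on the opposite strand and was lower too (log2 fold change -1.55, adjusted p = 7.89e-04, edgeR).

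Chrm3 (ENSMUSG00000046159; chromosome 13, 9875486 to 10360847, minus strand), for the Gq-coupled M3 receptor, was a low gene, with 68 to 145 counts in non-defeated TRAP libraries and 202 to 249 counts in input. In normalized CPM it measured 1.39, 0.948, 1.57 and 1.22 in non-defeated 11, 1, 6 and 9, and 2.37, 2.93 and 2.78 in the input libraries. The groups did not overlap. The log2 fold change was -1.07 ± 0.37 (adjusted p = 0.0243, edgeR), and the call was lost in 3 of the 7 fits that left out a library, those without non-defeated 1 (adjusted p = 0.0614, edgeR), input 13 (0.0713) or input 14 (0.0615). It was also lost with an offset for gene length (adjusted p = 0.0689, edgeR) and without the 5 libraries high in Tcf7l2 (log2 fold change -1.05, adjusted p = 0.0558, edgeR).

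**Figure D2:**
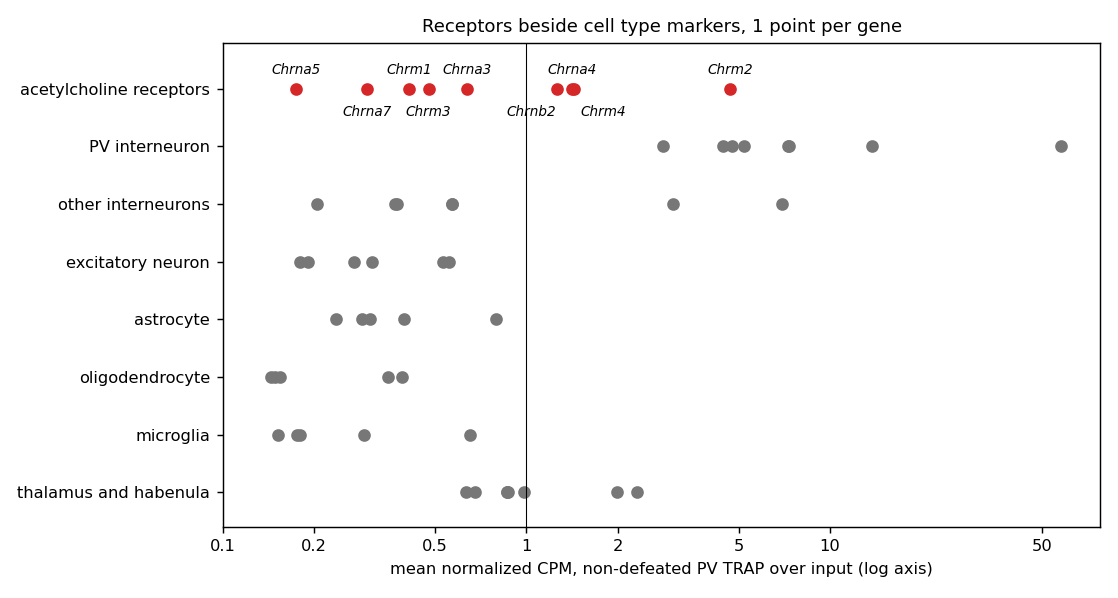
Ratio of mean normalized CPM in non-defeated TRAP libraries (n = 4) to input (n = 3), on a log axis, with 1 point per gene, for the 9 receptor genes (red) and the markers of 7 cell types (grey). Chrm2 (4.69) lay within the range of the PV interneuron markers, whereas Chrm1 (0.412), Chrm3 (0.476) and Chrna7 (0.298) lay within that of the excitatory neuron markers and of other cell types.

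Among nicotinic subunits, Chrna7 (ENSMUSG00000030525; chromosome 7, 63098692 to 63212569, minus strand) had the smallest adjusted p. Its normalized CPM was 2.51, 2.51, 2.46 and 2.65 in non-defeated 11, 1, 6 and 9 against 9.04, 9.42 and 7.04 in input 12, 13 and 14. The groups did not overlap and the non-defeated libraries lay close together. The log2 fold change was -1.75 ± 0.15 (adjusted p = 2.98e-07, edgeR), and without the 5 libraries high in Tcf7l2 it was -1.88 ± 0.21 (adjusted p = 7.11e-05, edgeR). The ratio of 0.298 lay inside the same 4 marker ranges as that of Chrm1 and inside that of the oligodendrocyte markers (0.144 to 0.389). From which cells the Chrna7 reads came was not tested.

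Chrnb2 (ENSMUSG00000027950; chromosome 3, 89746195 to 89764632, minus strand) encodes β2, the partner of α4. Normalized CPM of Chrnb2 was 15.5, 12.6, 16.9 and 14.8 in non-defeated 11, 1, 6 and 9, and 12.7, 11.2 and 11.7 in the input libraries. Non-defeated 1 lay within the input range, so the groups overlapped. The test gave a log2 fold change of 0.33 ± 0.13 (adjusted p = 0.0365, edgeR), and the call held in 2 of the 7 fits that left out a library, being lost without non-defeated 11 (adjusted p = 0.0615, edgeR), non-defeated 6 (0.105), non-defeated 9 (0.0535), input 13 (0.125) or input 14 (0.0934). It was also lost with no filter on low counts (adjusted p = 0.0597, edgeR), with an offset for GC content (0.0544) and without the 5 libraries high in Tcf7l2 (0.148). Chrnb2 shares 1365 bp, or 16.3% of its exon length, with Adar on the opposite strand, which had 138 ± 17 CPM in TRAP and 127 ± 4 CPM in input (adjusted p = 0.342, edgeR).

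Chrna4 (ENSMUSG00000027577; chromosome 2, 181018380 to 181043546, minus strand) did not pass the test, and its level differed more between libraries of a group than between groups. Normalized CPM of Chrna4 was 18.5, 8.49, 6.04 and 19.6 in non-defeated 11, 1, 6 and 9, and 6.61, 8.86 and 12.4 in input 12, 13 and 14. The high libraries in both groups, non-defeated 11, non-defeated 9 and input 14, were those high in Tcf7l2. The log2 fold change was 0.50 ± 0.54 (adjusted p = 0.449, edgeR). Without the 5 libraries high in Tcf7l2 it was -0.08 (adjusted p = 0.813, edgeR), whereas with the mean level of the thalamus and habenula markers as a covariate it was 0.49 ± 0.20 (adjusted p = 0.0492, edgeR), so its direction depended on how these libraries were treated.

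The 2 other nicotinic genes lie next to each other on chromosome 9, Chrna5 (ENSMUSG00000035594; 54980880 to 55007779, plus strand) 2331 bp from Chrna3 (ENSMUSG00000032303; 55010111 to 55026562, minus strand), and both had few counts. Chrna5 had 27, 4, 55 and 12 counts in non-defeated 11, 1, 6 and 9, and 157, 149 and 111 counts in the input libraries. This corresponded to a normalized CPM of 0.0558 to 0.596 in TRAP and 1.24 to 2.11 in input, with no overlap. Chrna5 thus had a log2 fold change of -2.49 ± 0.58 (adjusted p = 0.00213, edgeR), and of -2.55 ± 0.74 without the 5 libraries high in Tcf7l2 (adjusted p = 0.0165, edgeR). Chrna3 had 7, 14, 19 and 32 counts in the same TRAP libraries and 21, 15 and 61 counts in input. The groups overlapped, and its log2 fold change was -0.66 ± 1.04 (95% interval -2.88 to 1.55; adjusted p = 0.608, edgeR). The libraries of a group differed by more than counting error, with coefficients of variation of 65.2% in TRAP and 68.8% in input against 26.3% and 20.1% from counting alone.

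**Figure D3:**
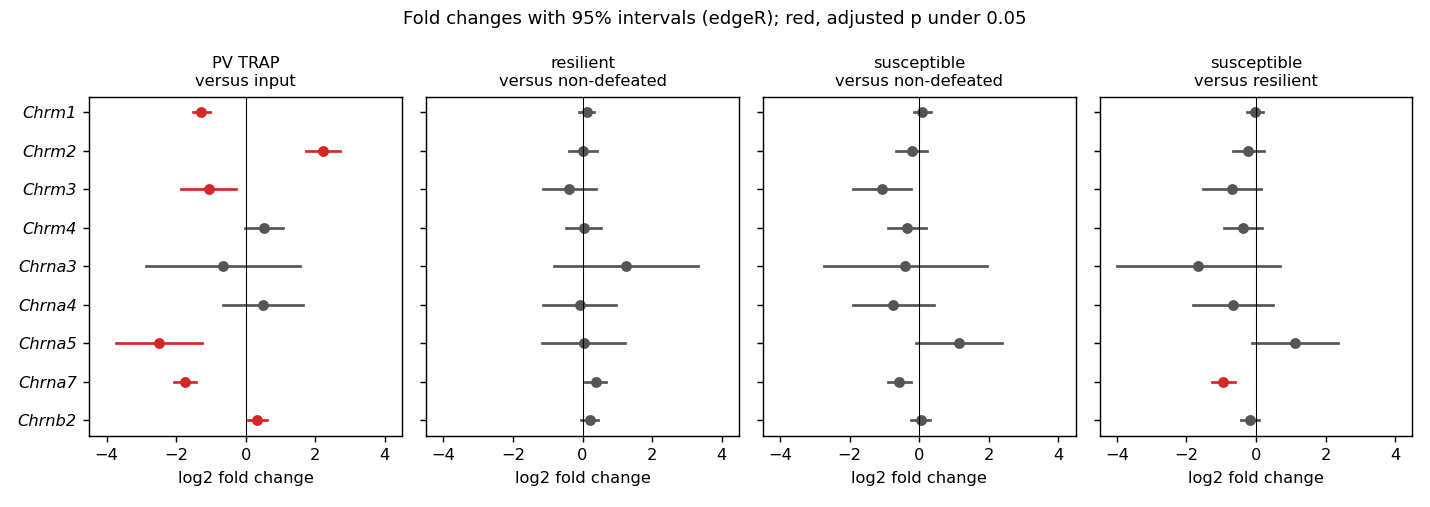
Log2 fold change (point) and 95% interval (line) of the 9 receptor genes in the 4 comparisons, from edgeR, with red for an adjusted p under 0.05. In PV TRAP versus input 6 genes passed, in susceptible versus resilient Chrna7 alone of the 9, and in the other 2 comparisons 0.

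The remaining 12 receptor subunit genes were low, with at most 1.31 CPM in any TRAP library (Chrna1). Of these, 8 were tested, 1 was higher in TRAP and 1 lower, beside 27.4% and 27.6% of all genes. The median log2 fold change was -0.55, against -0.04 over all genes tested. Chrnb1, a subunit of the muscle receptor, had 0.852 ± 0.299 CPM against 0.247 ± 0.071 CPM in input (log2 fold change 1.78, adjusted p = 6.87e-04, edgeR). Chrna1, the α subunit of the muscle receptor, had 0.465 ± 0.261 CPM against 1.197 ± 0.167 CPM (log2 fold change -1.36, adjusted p = 0.00591, edgeR). Chrnd, also a muscle subunit, had 0 counts in all 14 libraries, which allows up to 3 counts per library by counting error alone. Chrm5, the last muscarinic gene, had 0 to 59 counts in TRAP and 62 to 90 counts in input and did not pass (adjusted p = 0.143, edgeR).

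Genes that make, clear or anchor the acetylcholine machinery were tested as 6 of 7 listed, Slc18a3 not being analysed here. Of the 6, 2 were higher in TRAP and 2 lower, beside 27.4% and 27.6% of all genes. Colq, the collagen tail that anchors acetylcholinesterase, had 2.93 ± 2.40 CPM in TRAP and 0.188 ± 0.103 CPM in input (log2 fold change 3.93 ± 0.78, adjusted p = 6.43e-04, edgeR). In the non-defeated libraries 11, 1, 6 and 9 it had 6.26, 0.878, 1.51 and 3.09 CPM, with the highest values in those high in Tcf7l2, and the highest of all 14 libraries was resilient 7 at 6.86 CPM, whereas susceptible 10, also high in Tcf7l2, was the lowest TRAP library at 0.729 CPM. Ache, which encodes acetylcholinesterase itself, had 44.5 ± 9.97 CPM against 26.1 ± 1.2 CPM (log2 fold change 0.77 ± 0.18, adjusted p = 0.00229, edgeR). It too was highest in resilient 7, at 67.1 CPM. Without the 5 libraries high in Tcf7l2 the log2 fold changes were 3.10 ± 0.47 for Colq (adjusted p = 4.61e-04, edgeR) and 0.52 ± 0.14 for Ache (adjusted p = 0.0121, edgeR). Prima1, the membrane anchor of the enzyme in brain, was lower at 0.358 ± 0.094 CPM against 1.59 ± 0.29 CPM (log2 fold change -2.14, adjusted p = 8.49e-04, edgeR), as was Bche, for butyrylcholinesterase (log2 fold change -2.28, adjusted p = 0.0422, edgeR). In the fit without those libraries Prima1 had -1.74 (adjusted p = 0.0419, edgeR) and Bche -4.32 (adjusted p = 0.00216, edgeR). The Bche value there rested on 6 and 5 counts in non-defeated 1 and 6, against 125 and 94 counts in input 12 and 13. Chat, for the enzyme that makes acetylcholine, had at most 1.56 CPM in a TRAP library and was at 0 in 3 of them.

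Of 8 chaperones and Ly6-type modulators of nicotinic receptors, 4 were higher and 2 lower in TRAP, beside 27.4% and 27.6% of all genes. Lypd6 (49.8 ± 5.5 CPM against 17.0 ± 1.6 CPM, log2 fold change 1.55) and Lypd6b (14.1 ± 2.2 CPM against 5.61 ± 0.77 CPM, log2 fold change 1.33) encode Ly6 proteins that bind nicotinic receptors. Tmem35a, which encodes NACHO, a chaperone needed for assembly of α7 receptors, had 47.9 ± 3.4 CPM against 23.2 ± 1.1 CPM (log2 fold change 1.05 ± 0.15, adjusted p = 5.29e-05, edgeR). It was thus higher in the pulldown in which Chrna7 itself was lower. Lypd1, the Ly6 modulator with the smallest p, went the other way at 23.9 ± 2.3 CPM against 102 ± 11 CPM (log2 fold change -2.09, adjusted p = 1.41e-07, edgeR).

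Transduction genes downstream of the muscarinic receptors were listed for both pathways. Of 11 Gq pathway genes 1 was higher and 6 lower, with a median log2 fold change of -0.53, and of 11 Gi/o pathway genes again 1 was higher and 6 lower, with a median of -0.37. The test called 55% of all genes, with a median of -0.04. In the Gq list, Kcnq5 and Kcnq3, subunits of the Kv7 channels that M1 closes, had log2 fold changes of -1.83 and -0.90, and the phospholipase gene Plcb2 was higher by 1.01 on the log2 scale. In the Gi/o list, the G protein gene Gnai2 and the GIRK channel gene Kcnj6 had log2 fold changes of -0.75 and -1.05, and Gnb5, a G protein β subunit that pairs with RGS proteins, was higher by 0.28 on the log2 scale. All of these had adjusted p under 0.05 (edgeR). Of the 26 genes called in these 5 lists, 24 were still called without the 5 libraries high in Tcf7l2, and the other 2 were Gnb5 (adjusted p = 0.0717, edgeR) and Gna11 (0.0743). That fit gained calls in the Gq list, for Plcb4 (log2 fold change 0.89, adjusted p = 1.40e-04, edgeR) and Rgs4 (-0.82, adjusted p = 7.76e-04, edgeR). It called 50.3% of all genes.

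The comparisons between TRAP groups ask which transcripts in the PV neuron pulldown differ with defeat and with its outcome. Chrna7 was the only one of the 9 receptor genes that passed in any of them, being lower in susceptible than in resilient mice. Chrna7 had a TRAP-to-input ratio of 0.298 in non-defeated mice, and from which cells its reads came was not tested. Its normalized CPM was 2.79, 3.44, 3.05 and 3.88 in resilient 3, 5, 7 and 8, and 1.66, 1.65 and 1.81 in susceptible 10, 2 and 4. The 3 susceptible libraries lay below all 4 resilient libraries, and also below the 4 non-defeated libraries, which lay between the other groups at 2.46 to 2.65. The mean was 1.71 ± 0.09 CPM (SD, n = 3) in susceptible and 3.29 ± 0.48 CPM (n = 4) in resilient mice, a log2 fold change of -0.95 ± 0.15 (95% interval -1.28 to -0.62; adjusted p = 0.0227, edgeR), and Chrna7 ranked 21 of 21298 genes by p. The test called 1.89% of all genes, 0.873% lower. The groups did not overlap for 1 of the 9 receptor genes and for 15.1% of all genes. The two-sided exact permutation test of log2 CPM gave p = 0.0286, the smallest that 4 against 3 libraries allow.

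The counts behind Chrna7 were 217 to 288 in resilient, 120 to 134 in susceptible and 179 to 227 in non-defeated libraries. Counting error alone would give a coefficient of variation of 6.2% in resilient, 8.9% in susceptible and 7.2% in non-defeated libraries. The observed values were 14.5%, 5.5% and 3.2%, so the susceptible and the non-defeated libraries differed among themselves by less than counting error. The call held in 10 of 12 other settings and in 4 of 7 fits that left out a library, with log2 fold changes from -1.02 to -0.86 in all of them. It was lost without resilient 7 (adjusted p = 0.0573, edgeR), resilient 8 (0.0702) or susceptible 2 (0.109), and when only the 2 groups compared (0.136) or only the TRAP libraries (0.0834) entered the fit. Without the 5 libraries high in Tcf7l2 the log2 fold change was -0.96 ± 0.20 (adjusted p = 0.0382, edgeR).

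**Figure D4:**
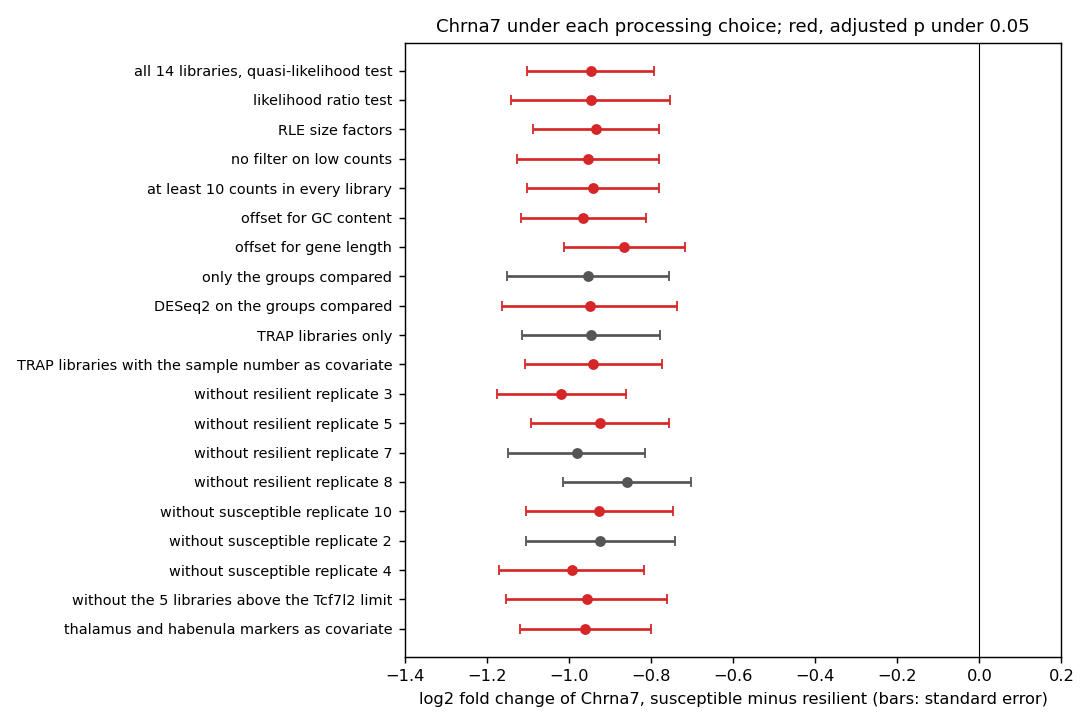
Log2 fold change of Chrna7 in susceptible minus resilient mice (point) with its standard error (bar) under the main setting and 19 others, red where the adjusted p was under 0.05. The fold changes stayed between -1.02 and -0.86, and 5 of the 19 other settings had an adjusted p over 0.05.

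Blood transcripts moved along the same contrast. All 3 hemoglobin genes of the blood list (Hba-a1, Hba-a2, Hbb-bs) were higher in susceptible than in resilient mice, for example Hba-a1 with 306 ± 35 CPM against 90.4 ± 65.7 CPM (adjusted p = 0.0411, edgeR). Their summed level was 738 to 982 CPM in susceptible, 108 to 490 CPM in resilient and 96.8 to 198 CPM in non-defeated libraries, and 638 to 813 CPM in input. Their part in the Chrna7 result was not tested. Of the excitatory neuron markers 0 of 6 were called between susceptible and resilient mice, with summed levels of 586 to 954 CPM and 480 to 1014 CPM. Of the PV interneuron markers 0 of 8 were called, with 3263 to 4573 CPM and 3737 to 4501 CPM. The counts for these 3 lists stand beside 1.89% of all genes called.

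Against non-defeated mice, Chrna7 stood on opposite sides in the 2 outcomes with no call in either. In resilient mice it was 1.30 times the non-defeated mean (log2 fold change 0.38 ± 0.14, adjusted p = 1, edgeR), and in susceptible mice 0.674 times (log2 fold change -0.57 ± 0.15, adjusted p = 0.180, edgeR). The groups did not overlap in either comparison, and the unadjusted p values were 0.0166 and 0.00233 in the edgeR fit. Both comparisons share the 4 non-defeated libraries. In resilient versus non-defeated mice 0 of the 9 receptor genes and 0% of all genes were called (edgeR), with 1 receptor gene and 4.38% of all genes at an unadjusted p under 0.05. DESeq2 also called 0 receptor genes and 0 genes in all. The groups did not overlap for 1 of the 9 and for 2.35% of all genes. In susceptible versus non-defeated mice 0 of the 9 and 0.0376% of all genes were called (edgeR), with 2 receptor genes and 13.3% of all genes at an unadjusted p under 0.05. DESeq2 called 0 of the 9 and 113 genes in all. There 1 of the 9 and 8.62% of all genes had groups that did not overlap.

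Chrm3 was the other receptor gene below an unadjusted p of 0.05, in susceptible versus non-defeated mice. Its normalized CPM was 0.212, 0.618 and 1.002 in susceptible 10, 2 and 4, and 0.706, 1.45, 0.824 and 0.977 in resilient 3, 5, 7 and 8. Susceptible 10, with 16 counts, was the lowest of all libraries. The groups overlapped, since susceptible 4 lay above non-defeated 1. In this comparison the log2 fold change was -1.07 ± 0.40 (adjusted p = 0.285, edgeR), and in susceptible versus resilient mice -0.70 ± 0.39 (adjusted p = 0.334, edgeR).

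The remaining muscarinic genes overlapped between the stress groups. For Chrm1 the levels were 54.7, 54.2 and 46.9 CPM in susceptible 10, 2 and 4 and 53.2, 62.4, 43.8 and 52.5 CPM in resilient 3, 5, 7 and 8, and the log2 fold change between them was -0.03 (95% interval -0.27 to 0.21; adjusted p = 0.912, edgeR). For Chrm2 the levels were 16.6, 23.3 and 16.4 CPM in the susceptible and 24.0, 16.1, 28.4 and 19.2 CPM in the resilient libraries, with a log2 fold change of -0.23 (95% interval -0.68 to 0.22; adjusted p = 0.582, edgeR). Values of the outcome groups were interleaved in both genes. Chrm4 had 2.16, 4.08 and 2.76 CPM in susceptible and 3.56, 4.78, 2.76 and 4.57 CPM in resilient libraries, with a log2 fold change of -0.39 (95% interval -0.93 to 0.16; adjusted p = 0.416, edgeR).

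Of the nicotinic genes other than Chrna7, Chrnb2 was the steadiest, with 12.9, 17.8 and 15.2 CPM in susceptible 10, 2 and 4 and 17.7, 15.6, 17.1 and 18.6 CPM in resilient 3, 5, 7 and 8. Its log2 fold change was -0.17 (95% interval -0.44 to 0.10; adjusted p = 0.472, edgeR). Chrna5 had 19, 50 and 81 counts in susceptible and 22, 29, 33 and 16 counts in resilient libraries, with overlapping groups and a log2 fold change of 1.11 (95% interval -0.13 to 2.36; adjusted p = 0.291, edgeR). Chrna3 had 1, 34 and 5 counts in susceptible and 27, 6, 146 and 9 counts in resilient libraries. The 95% interval of its log2 fold change, -4.00 to 0.68, was wide, and the log2 fold change was -1.66 with all libraries and 0.02 without resilient 7. Coefficients of variation were 139% in resilient and 136% in susceptible libraries, against 25.4% and 54.0% from counting alone.

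Chrna4 was again highest in a library high in Tcf7l2. It had 5.46, 6.84, 29.5 and 7.67 CPM in resilient 3, 5, 7 and 8, and 7.18, 6.91 and 9.37 CPM in susceptible 10, 2 and 4. Resilient 7, the library with the highest Tcf7l2 level (132 CPM), had the highest Chrna4 level of all 14. The log2 fold change from resilient to susceptible mice was -0.66 (95% interval -1.82 to 0.50; adjusted p = 0.523, edgeR) with all libraries, 0.23 without resilient 7 and 0.29 without the 5 libraries high in Tcf7l2. In the 7 TRAP libraries with low Tcf7l2, Chrna4 ranged from 5.46 to 9.37 CPM, and in the 4 with high Tcf7l2 from 7.18 to 29.5 CPM, so that susceptible 10 lay within the lower range. The part of thalamic tissue in the Chrna4 level was not tested beyond these values.

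**Figure D5:**
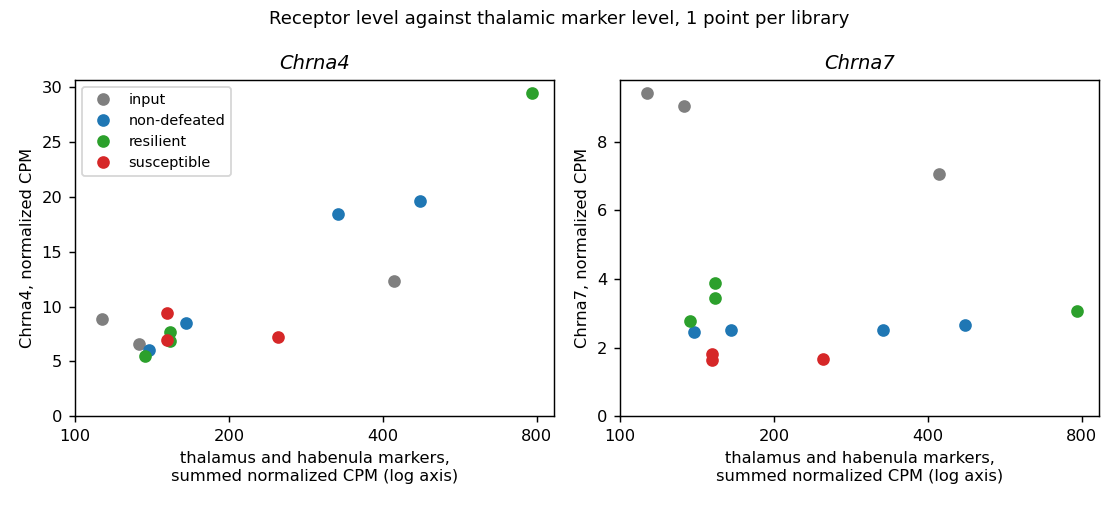
Normalized CPM of Chrna4 (left) and Chrna7 (right) in each of the 14 libraries against the summed normalized CPM of 8 thalamus and habenula markers, on a log axis. Chrna4 was highest (29.5 CPM) in resilient 7, where the marker sum was 784 CPM, whereas the susceptible points of Chrna7 (1.65 to 1.81 CPM) were the lowest at marker sums of 151 to 249 CPM.

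In the other cholinergic lists, 2 of 44 genes tested passed in susceptible versus resilient mice, beside 1.89% of all genes. There 0 of 8 other receptor subunits, 0 of 6 genes of acetylcholine handling and 0 of 8 chaperones and modulators passed (edgeR), with 1, 1 and 0 at an unadjusted p under 0.05, beside 20.9% of all genes, and DESeq2 called 0 in each. In the Gq list 1 of 11 passed, Kcnq3, with 19.3 ± 3.0 CPM in susceptible and 11.4 ± 1.3 CPM in resilient mice (log2 fold change 0.76 ± 0.12, adjusted p = 0.0225, edgeR). In the Gi/o list 1 of 11 passed, Gnb5, with 147 ± 14 CPM against 189 ± 8 CPM (log2 fold change -0.36 ± 0.08, adjusted p = 0.0382, edgeR). Without the 5 libraries high in Tcf7l2 both were still called. The log2 fold changes were 0.85 for Kcnq3 (adjusted p = 0.0331, edgeR) and -0.40 for Gnb5 (adjusted p = 0.0409, edgeR). That fit also called Chrna1, among the 8 other receptor subunits, as higher in susceptible mice (log2 fold change 1.46, adjusted p = 0.0496, edgeR). With all libraries the log2 fold change of Chrna1 was 1.17 and it was not called. Tmem35a, the α7 chaperone, had 51.3 ± 12.8 CPM in susceptible and 44.6 ± 6.2 CPM in resilient mice (adjusted p = 0.472, edgeR). In the 2 comparisons with non-defeated mice 0 of the 44 genes tested in these 5 lists passed (edgeR), 2 having an unadjusted p under 0.05 in resilient mice (4.38% of all genes) and 6 in susceptible mice (13.3% of all genes), and DESeq2 also called 0.

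For the 6 receptor genes that passed between TRAP and input, the genes of most alike pattern over the 14 libraries were sought by the root mean square difference of log2 CPM, each gene being centred on its own mean. For Chrm1 these were Serpina3n at 0.0646 and H2-DMa at 0.106, on a scale where Chrm1 itself had an SD of 0.535. For Chrm2 they were Nrtn at 0.184, which encodes the growth factor neurturin, and Gprc5b at 0.203 (SD of Chrm2 0.956). For Chrnb2 they were Glmp at 0.0902 and Fam189a2 at 0.109 (SD 0.241). For Chrna7 the nearest genes, at 0.196 and 0.198 (SD 0.828), were ENSMUSG00000072829 and ENSMUSG00000067833, which the annotation did not name. The fits for Chrm3 (0.441 for Cep152) and Chrna5 (0.584 for Lrrn4) were looser. The 14 libraries include both TRAP and input, so that the measure includes the difference between them.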

How the data were processed

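Hippocampal PV neuron TRAP libraries (4 non-defeated, 4 resilient, 3 susceptible) and input libraries (3, non-defeated) were grouped by their GEO labels. The authors deposited raw counts per gene, not normalized. Per the submitters' processing notes, reads were aligned to mm10 with STAR (2.5.3a) and counted with HTSeq. Per the study's methods, reads of 150 bp were trimmed with fastp, and libraries came from a SMART-Seq kit, which does not mark strand. Gene names, positions and lengths came from GENCODE on GRCm38 (37693 of 39017 IDs named, the others holding 0.824% of counts), and promoter windows from RefSeq on GRCm38.p6.

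Counts of all 14 libraries were fitted in 1 edgeR quasi-likelihood model (edgeR 4.0.16, R 4.3.3) with TMM factors and filterByExpr, leaving 21298 genes, and p-values were adjusted by the Benjamini-Hochberg method over all of them. Standard errors were the fold change over the square root of its F statistic. Exact permutation tests used log2 CPM with a prior count of 2. Totals of 64110214 to 94726962 counts set the depth. Each TRAP sample is 1 mouse, whereas the labels do not say whether the input samples are separate mice or the same as the non-defeated TRAP mice, so that p-values measure the spread between these samples. No 2 replicates were alike within counting error (chi-square per degree of freedom 13.2 or more). Alternatives were DESeq2 (1.42.0), a likelihood ratio test, other size factors, filters, samples and offsets, and leaving out each library. The fit was also run on simulated data, whose outcome is not given here and lends no weight to the calls. All 9 receptor genes are named, and from each other list up to 3 genes per direction with the smallest p among those called. Gnaq, Gnai1 and Ly6e, lower in TRAP and within the first 3 of their lists by p, are not described. Gna11, Plcb4 and Rgs4 are named because their calls changed without the 5 libraries high in Tcf7l2. Chrm5, Chat and the Tmem35a value under stress were added after their values were seen. The receptor genes and the lists were chosen with earlier results of these data known. The likeness to other genes used the 2 nearest genes.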

Additional observations from a re-analysis of the deposited data

Results flagged for a closer look

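In groups of 4 libraries, the highest and the lowest library of each receptor gene were examined for a gap to the rest larger than Dixon's 95% limit, in 18 tests, of which chance flags about 1 in 20. Chrna4 in resilient 7 was set apart, with 29.5 CPM against 7.67 CPM in the nearest resilient library, a gap of 0.908 of the group's range. Chrna3 in resilient 7 was also set apart, with 1.77 CPM against 0.347 CPM, a gap of 0.838 of the range. Resilient 7 also had the highest Tcf7l2 level and the highest sum of thalamus and habenula markers of the 14 libraries (132 CPM and 784 CPM). The part of those markers' tissue in both values was not tested.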

How the results depend on the processing

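The count of receptor genes called in PV TRAP versus input was 6, and 4 to 7 under the alternatives (4 to 6 when a library was left out). It was 0 in resilient versus non-defeated and in susceptible versus non-defeated mice under every alternative run. In susceptible versus resilient mice it was 1, but 0 when only the 2 groups compared or only the TRAP libraries were fitted, and 0 to 1 when a library was left out. The cause was not tested. Of 667 single-gene values for the 9 receptor genes, 604 kept their direction and side of the threshold. The call was lost in 18 and gained in 3. A further 42 moved, which were uncalled sign changes or changes of rank in RPKM, and 0 called values reversed. The gained calls were Chrm4 in PV TRAP versus input with DESeq2 and without input 13, and Chrna4 there with the thalamus markers as a covariate. Among all genes, 403 were called in susceptible versus resilient mice, 1099 by the likelihood ratio test, 1004 by DESeq2, 1109 with the sample number as a covariate, 635 with the thalamus markers as one, 126 with no filter, 206 with an offset for GC content, 1 with TRAP libraries only and 0 with the 2 groups only. In susceptible versus non-defeated mice 8 genes were called, but 189 by the likelihood ratio test and 113 by DESeq2. The fits without the 5 libraries high in Tcf7l2 and with thalamus markers as a covariate were chosen after seeing the data. No paired analysis was possible, because the labels do not say whether any input and TRAP samples came from the same mouse. For Chrna3 and Chrna5 in non-defeated and Chrm3 in susceptible libraries, coefficients of variation (65.2%, 78.8% and 64.7%) exceeded those from counting alone (26.3%, 27.9% and 17.2%). The counting values treat each read as independent, and the source of the added spread was not tested.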
